A study of Homo sapiens with 42 samples.

Results

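The 10 genes described here form the receptor side of the epidermal growth factor receptor (EGFR) pathway, with the receptors EGFR, ERBB2, ERBB3 and ERBB4, the ligands AREG, EREG, HBEGF and TGFA, and the feedback inhibitors ERRFI1 and LRIG1. Open chromatin at these genes was measured by ATAC-seq, where a transposase cuts and tags accessible DNA. Every region that the deposited annotation assigned to 1 of the 10 genes was taken, whether it lay at a promoter, inside a gene or between genes. This gave 633 of the 242490 annotated regions over 4 tables, of which PC9 had 85, H1975 91, HCC827 380 and HCC2935 77. Of the 633 regions, 129 were annotated as promoter, 312 lay elsewhere inside a gene and 192 were distal intergenic.

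PC9, H1975, HCC827 and HCC2935 are human non-small cell lung cancer lines that carry activating EGFR mutations. Control cells had no drug for 21 days and then the solvent DMSO for 3 days. Drug tolerant persister cells (DTP) are those left after 24 days in 500 nM osimertinib, an EGFR kinase inhibitor. In the combo group, 21 days of osimertinib were followed by 3 days of 150 nM AZD5153, a small-molecule inhibitor, and whether osimertinib was kept during those days is not stated. PC9 and H1975 also had a group with 3 days of AZD5153 alone. Each of the 14 groups had 3 libraries, 42 in all. The labels do not say whether the 3 libraries of a group came from separate cultures, so that p-values measure only the spread between these libraries.

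EGFR family receptors sit in the plasma membrane, pair on ligand binding and signal through RAS and MAPK and through PI3K and AKT. In this family EGFR binds AREG, EREG, HBEGF and TGFA, which are made as membrane-bound precursors and released by proteases. ERBB2 has no known ligand and acts as a partner, ERBB3 has a weak kinase and is a strong activator of PI3K, and ERBB4 binds neuregulins. ERRFI1 (MIG6) binds the EGFR kinase domain and inhibits it, and LRIG1 lowers the amount of receptor at the surface. In lung adenocarcinoma with mutant EGFR this pathway is the target of treatment.

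Library totals over all regions ran from 3989287 to 5193390 counts (PC9), 6200672 to 10062505 (H1975), 1724680 to 4242868 (HCC827) and 3968690 to 8066287 (HCC2935). Set against pure counting noise, libraries of the same group varied 0.959 to 1.04 times as much in PC9 and 0.966 to 1.22 times as much in H1975. The PC9 libraries of a group thus differed by no more than sampling noise, and counts of calls are also given with the 3 libraries summed, so that each group is 1 sample and the spread is that of HCC2935. In HCC827 the same ratio reached 8.76. Levels are in CPM, the count divided by the total of the library in its table and scaled to 1000000. Changes are log2 fold changes with standard errors from edgeR, with a region called where its adjusted p (Benjamini-Hochberg, over all regions tested in the line) was under 0.05. Background shares are over all regions tested unless stated, and were not matched for depth. EGFR regions had medians of 9.62 CPM in PC9 and 9.11 in H1975, beside 3.4 and 1.98 over all tested regions. Regions with more counts are called more readily, and whether depth accounts for an excess over background was not tested. The extraction protocol in the labels describes ChIP of H3K27ac while titles and design give ATAC-seq, and the values are read here as ATAC-seq. With scaling by library size only, the median change over all regions in H1975 moved by 0.22 for DTP, 0.18 for AZD5153 alone and -0.11 for combo on the log2 scale. Promoter regions of the epithelial genes EPCAM, CDH1, KRT8, KRT18 and KRT19 were present in all 4 lines at 3.61 to 51.2 CPM. The lung transcription factor NKX2-1 had a promoter region at 3.59 to 29.3 CPM in each line, while the lung protease gene NAPSA had one at 3.12 to 16.2 CPM in PC9, H1975 and HCC2935 and none annotated in HCC827. Of the mesenchymal genes, ZEB1 had a promoter region in all 4 lines at 2.52 to 18.5 CPM, and TWIST1 had one in PC9 at 3.53 to 9.28 CPM. The blood marker PTPRC had no annotated promoter region in any line, and CD3E had one in PC9 at 1.17 to 11.3 CPM and in HCC2935 at 2.92 to 11.1 CPM. Of the endothelial markers, CDH5 was at 12.6 to 24.2 CPM in HCC2935, at up to 16.2 CPM in H1975 and at up to 12.9 CPM in PC9, and whether these had a part in any result was not tested.

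The sequences of 4 starts on which the results turn are shown first, as the 250 bases before each start in RefSeq (GRCh38.p14, 5′ to 3′ along the gene). They are the main and the internal EGFR start, whose regions changed in different ways, the AREG start and the internal LRIG1 start, which opened in H1975 under AZD5153. RefSeq gave such windows for 9 of the 10 genes. Capitals mark matches on either strand to the letters TGAGTCA (AP-1), TGACGTCA (CRE), CATTCC (TEAD) and CCGGAA (ETS).
EGFR main start, chr7:55018767-55019016, plus strand: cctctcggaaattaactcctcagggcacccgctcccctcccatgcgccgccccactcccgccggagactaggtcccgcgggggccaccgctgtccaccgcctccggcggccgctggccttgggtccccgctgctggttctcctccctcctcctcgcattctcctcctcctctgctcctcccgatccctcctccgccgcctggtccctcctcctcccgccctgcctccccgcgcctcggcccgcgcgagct
EGFR internal start, chr7:55109589-55109838, plus strand: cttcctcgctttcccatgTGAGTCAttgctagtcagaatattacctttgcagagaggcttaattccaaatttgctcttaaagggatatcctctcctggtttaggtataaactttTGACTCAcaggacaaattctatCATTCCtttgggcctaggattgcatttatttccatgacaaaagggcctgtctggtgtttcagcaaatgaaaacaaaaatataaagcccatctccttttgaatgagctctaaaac
AREG start, chr4:74444886-74445135, plus strand: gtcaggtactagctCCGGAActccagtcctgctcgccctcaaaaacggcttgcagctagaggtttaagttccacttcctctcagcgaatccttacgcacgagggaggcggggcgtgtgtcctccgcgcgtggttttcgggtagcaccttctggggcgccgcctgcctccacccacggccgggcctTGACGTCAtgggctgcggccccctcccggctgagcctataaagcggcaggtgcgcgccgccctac
LRIG1 internal start, chr3:66405768-66406017, minus strand: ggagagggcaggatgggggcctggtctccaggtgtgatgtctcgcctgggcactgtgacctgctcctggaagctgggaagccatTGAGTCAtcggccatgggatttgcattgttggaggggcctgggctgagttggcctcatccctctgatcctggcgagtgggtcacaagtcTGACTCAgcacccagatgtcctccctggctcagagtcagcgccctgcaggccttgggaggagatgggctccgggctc
The main EGFR window was 73.6% G and C and held none of the 4 motifs. The internal EGFR window was 38.8% G and C and held 2 AP-1 matches and 1 TEAD match, and the internal LRIG1 window held 2 AP-1 matches. The AREG window held 1 CRE and 1 ETS match. Over 35116 RefSeq windows of the same length, 4.2% held an AP-1, 1.65% a CRE, 11.9% a TEAD and 14.5% an ETS match. A match describes letters only and says nothing of binding.

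Of the 633 regions, 440 belonged to EGFR, which spans chr7:55019017-55211628 in RefSeq. PC9 had 36 of them, H1975 22, HCC827 359 and HCC2935 23. The other genes had 45 regions for ERRFI1, 37 for TGFA, 24 for HBEGF, 21 for ERBB2, 17 for AREG, 16 for ERBB3, 16 for EREG, 11 for LRIG1 and 6 for ERBB4 over the 4 tables. LRIG1 had no promoter region in the annotated PC9 table and a single region between genes. In HCC827 the 359 EGFR regions lay within 305 kb, and their median level was 17.6 CPM beside 5.27 CPM over all tested regions of the line. In PC9, H1975 and HCC2935 the EGFR regions had medians of 9.62, 9.11 and 8.68 CPM. EGFR regions took 0.701% to 1.24% of all counts of an HCC827 library, 0.0515% to 0.0602% in PC9, 0.027% to 0.0356% in H1975 and 0.022% to 0.0352% in HCC2935. The dense stretch in HCC827 went beyond the gene. In HCC827, 100 kb windows starting from 600 kb before to 500 kb after the EGFR start held 133 to 149 regions each with median levels of 9.53 to 19.9 CPM, against a median of 1.42 CPM over all regions of the full table. The window starting 600 kb after the EGFR start held 78 regions at a median of 3.28 CPM. Counts in a region rise with the number of DNA copies as well as with accessibility, and these cannot be told apart here. In the same way, fewer cells with an open region and less signal per cell cannot be told apart in such bulk libraries.

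**Figure D1:**
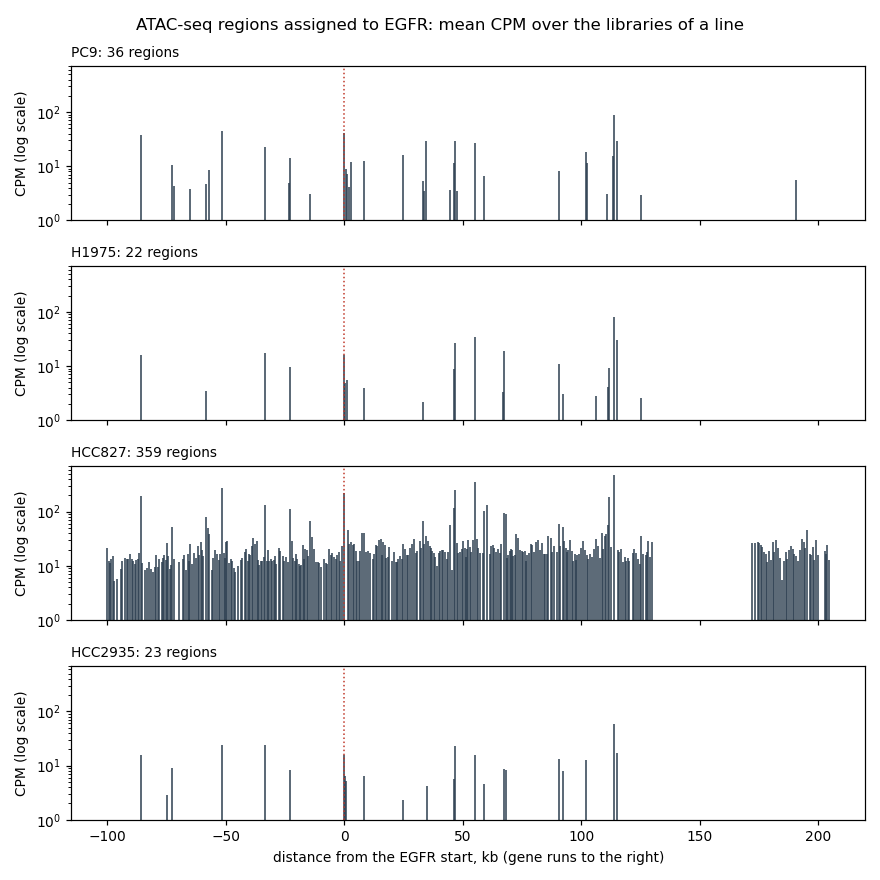
Each line is an ATAC-seq region assigned to EGFR, placed by its distance in kb from the EGFR start and drawn to its mean CPM over all libraries of the cell line on a log scale. HCC827 has 359 regions with a median of 17.6 CPM, and the other lines have 22 to 36 regions with medians of 8.68 to 9.62 CPM.

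The promoter regions of EGFR, ERBB2, ERBB3, ERRFI1 and HBEGF could be matched in the 4 tables and were compared as CPM over the matched regions in a joint scaling. The EGFR promoter stood highest in HCC827, at 346 to 500.0 CPM over its 9 libraries, and lower in PC9 at 54.2 to 81.9 CPM. In H1975 it was at 20.5 to 36.2 CPM and in HCC2935 at 20.4 to 34.3 CPM, and the ranges of these lines overlapped. The lines lay closer together at the other receptors. The ERBB2 promoter was at 19.5 to 28.6 CPM in PC9, 25.3 to 64.5 in H1975, 12.7 to 32.7 in HCC827 and 29.9 to 39.8 in HCC2935. For ERBB3 the promoter was at 14.7 to 23.6 CPM in HCC2935 and at 21.7 to 45.8 CPM in the other lines. The HBEGF promoter was at 28.3 to 50 CPM in PC9, 35.3 to 47.1 in H1975, 20.3 to 46.9 in HCC827 and 26.2 to 39.1 in HCC2935. The ERRFI1 promoter had 8.71 to 33.8 CPM, with overlapping ranges in the 4 lines. The promoter regions of TGFA, AREG and LRIG1 had no common match in the 4 tables, so their levels are CPM of each table on its own, side by side and without comparison. TGFA was at 15.0 to 31.8 CPM in PC9, 11.8 to 24.1 in H1975, 6.3 to 24.5 in HCC827 and 30.3 to 46.6 in HCC2935. AREG was at 10.8 to 15.2 CPM in PC9, 4.58 to 9.45 in H1975 and 8.2 to 18.5 in HCC2935. LRIG1 was at 25 to 43.2 CPM in H1975, 12.7 to 28.9 in HCC827 and 12.2 to 18.0 in HCC2935.

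**Figure D2:**
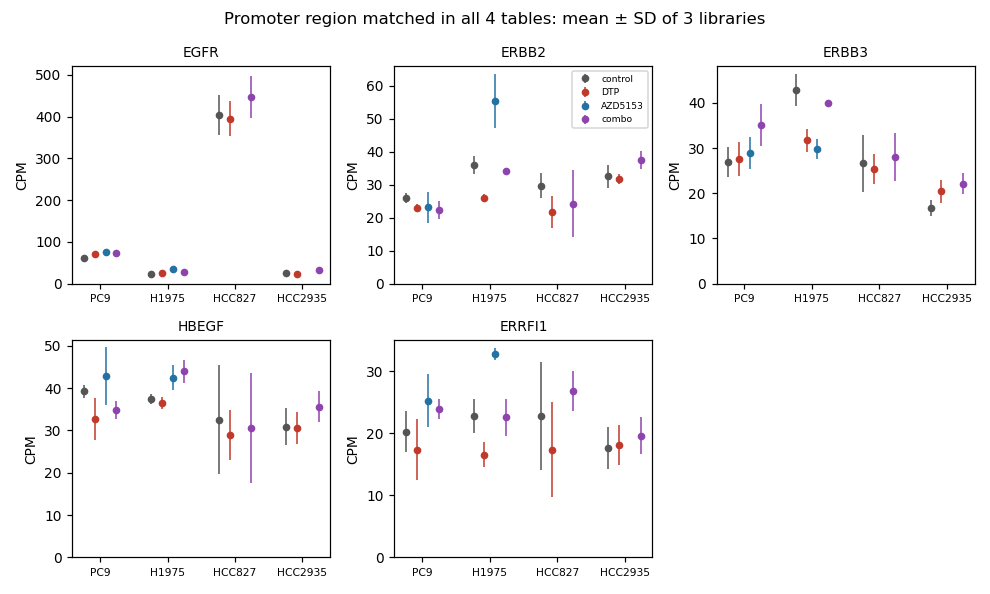
Points are the mean and bars the SD of 3 libraries of the promoter region matched in the 4 tables, in CPM from a joint scaling, for 5 genes in 4 cell lines, with colours for the groups. The EGFR promoter is at 346 to 500.0 CPM in HCC827 and at 20.4 to 81.9 CPM elsewhere, and the other 4 genes are at 64.5 CPM or less in every library.

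The comparison of DTP with control asks how the chromatin of the pathway differed in cells that had outlived the EGFR inhibitor. In H1975 the regions of the set were mostly lower in DTP. Of 91 regions 46 were called lower and 18 higher, with a median log2 change of -0.32 beside 0.02 over all regions tested, where 27.0% were called lower and 24.9% higher. In PC9, 23 of 85 regions were called lower and 12 higher, with 16.4% and 15.4% of all regions tested as the background. HCC2935 had 15 regions called higher and 13 lower of 77, close to the background of 18.7% higher and 18.6% lower. In HCC827, edgeR called 0 of 380 regions, where the background was 0.0158% called higher and 0.00607% lower. There 11 regions had an unadjusted p under 0.05 and DESeq2 called 1. In simulated HCC827 counts the edgeR test called 0 of 100 2-fold and 7 of 100 4-fold changes. A lack of calls in HCC827 thus does not show a lack of change. With the libraries of a group summed, 21 PC9 regions were called, 11 lower and 10 higher, against a background of 19.4%, so that the excess of lower calls in PC9 was not kept. In H1975 51 were called, 37 lower and 14 higher, against 40.2%. In H1975, 32 of the 52 regions outside promoters were called lower and 10 higher. Of the 39 promoter regions 14 were called lower and 8 higher. Over all genes of the line, with 1 promoter region each, 26.2% were called lower and 20.7% higher. The share outside promoters over all regions was not taken, so whether this split is particular to the 10 genes was not tested.

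**Figure D3:**
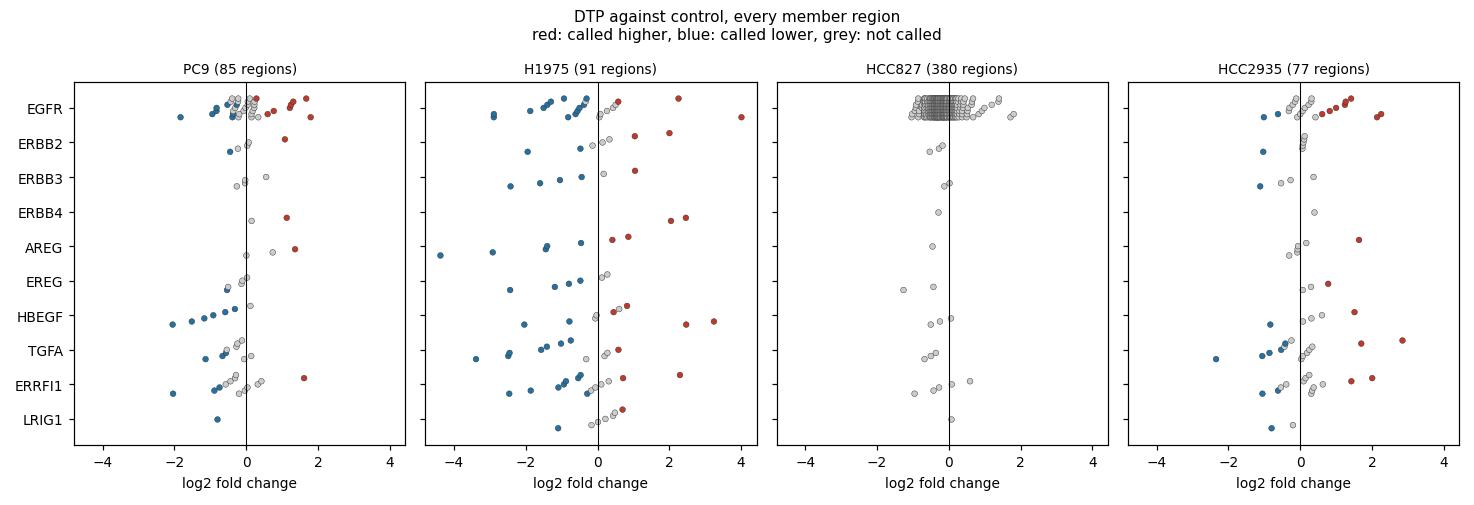
Each point is a region, placed by its log2 fold change in DTP against control, in rows by gene and panels by cell line, with called regions in red (higher) or blue (lower). H1975 has 46 blue and 18 red points of 91, PC9 has 23 and 12 of 85, HCC2935 has 13 and 15 of 77, and HCC827 has none called of 380.

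The largest EGFR changes in DTP lay away from its main start, and the main promoter was called in no line. In PC9, 8 of 36 EGFR regions were called higher and 8 lower. An intronic region 11444 bases past an internal start (chr7:55121167-55121668) had 4.76, 6.87 and 6.45 CPM in control and 20.6, 24.0 and 20.7 CPM in DTP. The groups did not overlap, and the log2 change was 1.79 ± 0.16 (SE, adjusted p = 1.08e-25). An exonic region 24497 bases past the main start rose from 8.99 to 9.61 CPM in control to 22.6 to 24.9 CPM in DTP (1.31 ± 0.14, adjusted p = 2.78e-18). The first-intron region 32897 bases past the main start went the other way, with 12, 7.85 and 6.84 CPM in control and 2.73, 1.64 and 3.01 CPM in DTP (-1.83 ± 0.25, adjusted p = 1.43e-11). All 3 control libraries stood above all 3 DTP libraries, and peaks were called in 3 control libraries and in 1 DTP library. The main promoter of EGFR itself was at 31.8 to 39.6 CPM in control and 39.0 to 44.6 CPM in DTP, and did not pass the test.

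In H1975, 13 of 22 EGFR regions were called lower in DTP and 3 higher. The region 33091 bases upstream of the start (chr7:54985425-54985926) had 41.0, 41.7 and 41.2 CPM in control and 6.01, 6.54 and 6.18 CPM in DTP. Its libraries were far apart between the groups and close within them, with a log2 change of -2.89 ± 0.10 (adjusted p = 3.48e-73). A region 1308 bases past the internal start (chr7:55111031-55111532) was at 0.509, 0.221 and 0.342 CPM in control and at 6.73, 6.22 and 6.81 CPM in DTP. This was the largest rise of the set in H1975 (4.01 ± 0.32, adjusted p = 1.73e-26), and a peak was called there in 3 DTP libraries and in no control library. The region over the internal start fell from 16.4 to 18.6 CPM to 9.97 to 10.5 CPM (-0.94 ± 0.11, adjusted p = 7.28e-14). The main promoter had 11.5 to 14.5 CPM in control and 14.1 to 15.9 CPM in DTP and did not pass the test.

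In HCC2935, 8 of 23 EGFR regions were called higher in DTP and 2 lower. The region 72266 bases upstream of the start (chr7:54946250-54946751) rose from 2.0, 3.96 and 4.54 CPM to 17.6, 14.4 and 15.7 CPM (2.14 ± 0.24, adjusted p = 1.94e-09). The exonic region 24499 bases past the start was at 0.911, 0.233 and 1.51 CPM in control and 3.58, 5.57 and 4.31 CPM in DTP (2.26 ± 0.41, adjusted p = 2.56e-05), and so differed in the same direction as the PC9 region at that place. The region 1271 bases past the internal start, where H1975 had its largest rise, went from 4.74 to 5.83 CPM to 11.2 to 11.7 CPM (1.00 ± 0.21, adjusted p = 0.000184). The main promoter stayed at 11.1 to 14 CPM in control and 14.1 to 15.2 CPM in DTP and was not called.

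The HCC827 libraries deviated together by replicate number, so values from a fit with that block follow here. With the block, 10 of 380 regions were called for DTP against control, beside a background of 3.88%, and 0 for combo against DTP, beside a background of 0.0304%. All 10 were EGFR regions, as were 359 of the 380 tested. The region 72275 bases upstream had 27.0, 22.5 and 18.7 CPM in control and 33.4, 43.8 and 161 CPM in DTP, and the third DTP library was far above the other two. Its change with the block was 1.42 (adjusted p = 0.0136), against 1.72 ± 0.55 (adjusted p = 0.343) without it. The region 1258 bases past the internal start was at 24.4, 26.6 and 16.3 CPM in control and 38.8, 51.8 and 157 CPM in DTP, with a change of 1.59 with the block (adjusted p = 0.00504). Lower were the region 33206 bases upstream, at 199, 208 and 177 CPM in control and 89.4, 74.5 and 155 CPM in DTP (-1.0 with the block, adjusted p = 0.0121), and the region 58009 bases upstream, at 101 to 168 CPM in control and 55.2 to 83.6 CPM in DTP (-0.97 with the block, adjusted p = 0.0245).

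The receptors ERBB2, ERBB3 and ERBB4 had fewer regions and mixed changes in DTP, and their largest falls and rises were in H1975. In H1975 the ERBB2 promoter fell from 18.5 to 21.5 CPM to 15.3 to 17 CPM (-0.48 ± 0.10, adjusted p = 1.33e-05), which was not called with the libraries summed (adjusted p = 0.0665). The ERBB2 region 1788 bases past the start (chr17:39689907-39690408) was at 4.58, 3.98 and 5.48 CPM in control and 1.08, 1.27 and 1.68 CPM in DTP (-1.95 ± 0.26, adjusted p = 5.83e-12). A region at a later ERBB2 start (chr17:39706963-39707464) rose from 0.774 to 1.27 CPM to 3.6 to 5.66 CPM (2.00 ± 0.27, adjusted p = 2.35e-11). For ERBB3 in H1975, 4 of 6 regions were called lower and 1 higher, and the region 903 bases before a start (chr12:56085115-56085616) went from 6.75, 8.18 and 8.67 CPM to 1.92, 1.69 and 1.36 CPM (-2.42 ± 0.21, adjusted p = 1.34e-23). The ERBB3 promoter fell by less there, from 21.5 to 25.6 CPM to 18.4 to 21.7 CPM (-0.44 ± 0.09, adjusted p = 1.1e-05, and 0.0853 with the libraries summed). In PC9 no ERBB3 region of 4 passed the test, and in HCC2935 the region 156 bases before an ERBB3 start fell from 10.3 to 13.1 CPM to 3.41 to 6.86 CPM (-1.11 ± 0.22, adjusted p = 8.22e-05). Both ERBB4 regions of H1975 rose, and the intronic one at chr2:211611166-211611667 went from 0.637, 0.663 and 0.685 CPM to 4.93, 3.9 and 3.77 CPM (2.46 ± 0.31, adjusted p = 1.16e-12). In PC9 the region at the same place was at 3.01, 1.18 and 1.17 CPM in control and 3.89, 3.28 and 4.22 CPM in DTP (1.13 ± 0.33, adjusted p = 0.00408).

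The neighbouring ligand genes AREG and EREG had most of their called regions in H1975. There AREG had 5 of 7 regions called lower and 2 higher in DTP. The distal region 56926 bases past an AREG start (chr4:74505565-74506066) had 9.04, 9.29 and 9.24 CPM in control and 1.32, 1.58 and 1.15 CPM in DTP (-2.92 ± 0.21, adjusted p = 6.06e-31). A lower region 52846 bases past the start went from 5.6, 4.64 and 4.79 CPM to 0.24, 0.211 and 0.314 CPM (-4.38 ± 0.37, adjusted p = 1.22e-24). At both places the control libraries stood well above the DTP libraries, and all 3 control libraries had a peak. In HCC2935 the region at the first of these places was at 3.03 to 7.29 CPM in control and 4.81 to 5.37 CPM in DTP and was not called. The AREG promoter in H1975 was among the regions called higher, at 4.58 to 5.14 CPM in control and 6.75 to 7.54 CPM in DTP. The AREG promoter in PC9 was at 11.8 to 14.1 CPM in control and 12.7 to 14.5 CPM in DTP and did not pass the test. Outside H1975 no AREG region was called lower, and those that were called rose. In PC9 1 of 3 was called, 31603 bases past a start, from 1.25, 1.57 and 2.15 CPM to 4.87, 4.31 and 4.22 CPM (1.36 ± 0.32, adjusted p = 0.000247). In HCC2935 1 of 6 was called, 24500 bases past a start, from 0.729, 1.17 and 1.01 CPM to 3.41, 3.0 and 3.15 CPM (1.64 ± 0.39, adjusted p = 0.000936). The matched HCC2935 region at the PC9 place, which was not assigned to AREG, was called higher as well (1.48). EREG had 4 of 6 regions called lower in H1975 and none higher, with 12334 bases past a start the largest fall, from 5.6, 5.86 and 5.59 CPM to 2.04, 0.738 and 0.838 CPM (-2.44 ± 0.25, adjusted p = 2.37e-18). In PC9 only the intronic EREG region 7458 bases before a start was called, at 18.2 to 22.9 CPM in control and 12.5 to 16.8 CPM in DTP (-0.54 ± 0.13, adjusted p = 0.00022, and 0.102 with the libraries summed). In HCC2935 1 of 3 EREG regions was called, 6788 bases before a start, and rose from 1.63 to 2.55 CPM to 3.81 to 4.55 CPM (0.78 ± 0.31, adjusted p = 0.0452).

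HBEGF, which codes for a heparin-binding ligand, was lower in PC9 DTP and mixed elsewhere. In PC9, 6 of 7 HBEGF regions were called lower and none higher, 4 of them also with the libraries summed. The region 1517 bases before the start (chr5:140348120-140348621) fell from 5.77, 5.88 and 4.89 CPM to 0.973, 1.23 and 1.81 CPM (-2.05 ± 0.32, adjusted p = 7.68e-09). The distal region 11292 bases past an internal start went from 10.3, 10.2 and 9.97 CPM to 3.31, 3.69 and 3.82 CPM (-1.52 ± 0.21, adjusted p = 1.36e-10). In H1975 the neighbouring region 11813 bases past that internal start did the opposite. It was at 0.764, 0.442 and 0.342 CPM in control and 4.69, 6.86 and 4.92 CPM in DTP (3.24 ± 0.31, adjusted p = 4.31e-20). The PC9 region at that place was at 13.1 to 14.9 CPM in control and 6.62 to 9.64 CPM in DTP (-0.92 ± 0.17, adjusted p = 6.14e-07). In HCC2935 an intronic region 4915 bases before the HBEGF start rose from 4.37, 4.43 and 4.54 CPM to 14.8, 10.9 and 15.1 CPM (1.51 ± 0.22, adjusted p = 2.98e-07).

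TGFA had more regions called lower than higher in 3 lines. In H1975, 7 of 11 were called lower and 1 higher, in HCC2935 5 of 14 lower and 2 higher, and in PC9 3 of 9 lower and none higher, so that outside H1975 most TGFA regions were not called. Their median log2 change in H1975 was -1.02, beside -0.13 over other tested regions within 5 Mb. In PC9 it was -0.275 beside -0.21, and in HCC2935 -0.11 beside -0.17, so that outside H1975 it was near that of the regions around the gene. None of 3 was called in HCC827. The TGFA promoter in H1975 went from 21.5, 20.8 and 24.1 CPM to 11.8, 12.1 and 12.9 CPM (-1.02 ± 0.10, adjusted p = 3.73e-18). The distal region 77188 bases past an internal start fell from 6.08 to 6.96 CPM to 0.422 to 1.08 CPM (-3.39 ± 0.27, adjusted p = 1.8e-26). In HCC2935 the intronic region 28050 bases past the start had 53.2, 50.6 and 46.4 CPM in control and 25.9, 27.2 and 23.9 CPM in DTP (-1.06 ± 0.11, adjusted p = 2.04e-10). Another intronic region, 16320 bases past the start, went from 11.3, 5.6 and 7.56 CPM to 1.95, 1.57 and 1.66 CPM (-2.34 ± 0.30, adjusted p = 2.83e-08). Against these falls, the HCC2935 region 14501 bases before the start (chr2:70568694-70569195) rose from 1.46, 0.699 and 1.76 CPM to 13.0, 10.1 and 7.29 CPM (2.85 ± 0.34, adjusted p = 5.32e-09). No control library had a peak there and 3 DTP libraries had one.

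Of the feedback inhibitors, ERRFI1 had regions that moved both ways within a line. In PC9 the intronic region 71067 bases before the start (chr1:8097376-8097877) fell from 8.27, 8.04 and 5.87 CPM to 1.56, 2.05 and 1.81 CPM (-2.04 ± 0.28, adjusted p = 1.75e-11). The region 49018 bases before the start rose from 3.01, 2.16 and 0.978 CPM to 6.62, 5.33 and 6.63 CPM (1.61 ± 0.28, adjusted p = 3.98e-07). In H1975, 8 of 14 ERRFI1 regions were called lower and 2 higher. The intronic region 14253 bases before the start had 11.5, 11.6 and 9.36 CPM in control and 2.64, 2.53 and 1.47 CPM in DTP (-2.46 ± 0.18, adjusted p = 8.12e-30), and the promoter went from 10.8 to 13.8 CPM to 8.97 to 11.1 CPM (-0.47 ± 0.12, adjusted p = 0.000488, and 0.0854 with the libraries summed). In HCC2935 the exonic region 10072 bases past an internal start rose from 2.0, 2.33 and 3.53 CPM to 12.2, 9.58 and 11.3 CPM (2.01 ± 0.25, adjusted p = 2.2e-08). LRIG1 had 1 of 1 region called in PC9 DTP, 2 of 7 in H1975, 1 of 2 in HCC2935 and none of 1 in HCC827. In PC9 its lone region, 92618 bases before the start, was at 2.75 to 5.51 CPM in control and 1.17 to 3.21 CPM in DTP (-0.82 ± 0.31, adjusted p = 0.0281, and 0.1 with the libraries summed). Its promoter was at 25 to 26.9 CPM in H1975 control and 28.8 to 30.3 CPM in DTP and was not called, and the region 2963 bases before a start fell from 2.93 to 3.32 CPM to 1.36 to 1.79 CPM (-1.10 ± 0.27, adjusted p = 0.000188). The H1975 region 582 bases past a start was called higher, from 1.44 to 1.66 CPM to 2.32 to 3.14 CPM (0.70 ± 0.28, adjusted p = 0.0267), and lost the call with the libraries summed (adjusted p = 0.108) and with regional medians removed (adjusted p = 0.317). In HCC2935 the LRIG1 region 700 bases before a start fell from 8.32 to 11.7 CPM to 5.3 to 7.86 CPM (-0.80 ± 0.22, adjusted p = 0.00316).

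**Figure D4:**
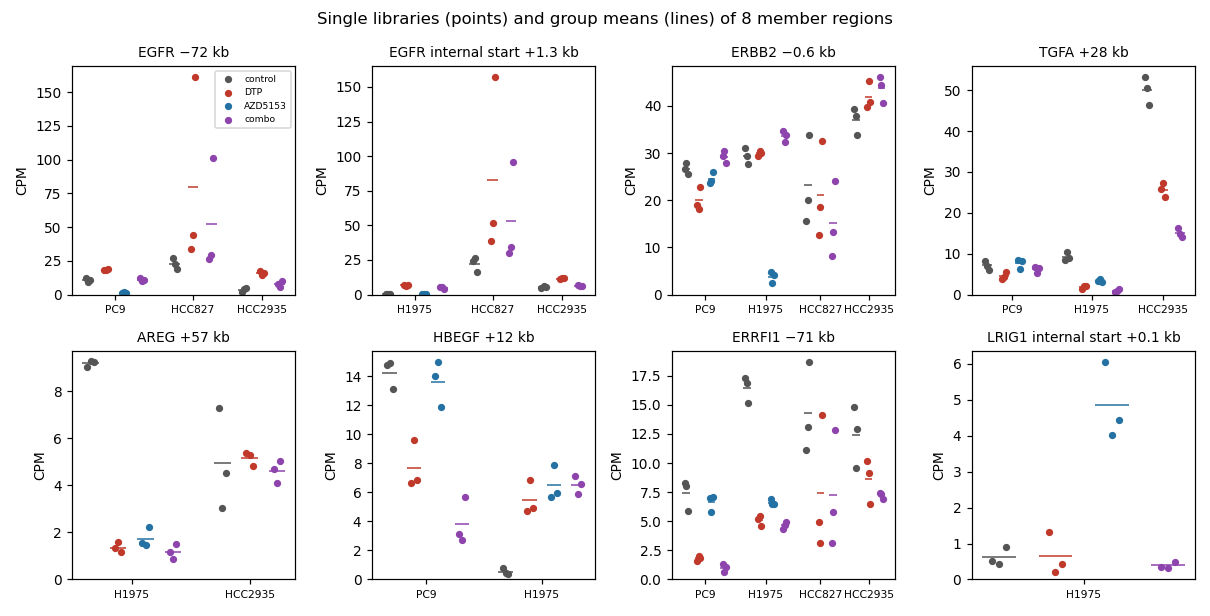
Points are the CPM of single libraries and lines the group means for 8 regions named in the text, with cell lines side by side where a region was annotated there and colours for the groups. The ERBB2 region 0.6 kb before a start is at 2.42 to 4.87 CPM in H1975 under AZD5153 alone and at 27.7 CPM or more in the other H1975 groups, and the third HCC827 DTP library stands apart at the EGFR region 72275 bases upstream.

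To ask whether a DTP change differed between lines, 79934 regions were matched in the 4 tables by an overlap of at least 50% of each other, and 84 of these belonged to the 10 genes. The DTP change differed by line for 41 of the 84 (48.8%), beside 39.2% of all 78368 matched regions tested. In the separate fits, 3 matched regions were called higher and 4 lower in at least 3 lines, 7 were called higher in at least 1 line and lower in another, and 17 were called in no line. These are 3.57%, 4.76%, 8.33% and 20.2% of the 84, beside 2.22%, 3.35%, 7.16% and 30.0% of all 79934 matched regions. Higher in PC9, H1975 and HCC2935 were the EGFR region 72289 bases upstream, the ERBB4 intron region 53926 bases past a start and the ERRFI1 region 49018 bases before the start. At the EGFR region the log2 changes were 0.77, 4.18 and 2.14, and the H1975 region, which carried no gene annotation, went from 0.0 to 0.6 CPM of matched regions in control to 4.89 to 6.38 CPM in DTP. At the ERBB4 region the changes were 1.13, 2.46 and 2.18, and at the ERRFI1 region they were 1.61, 1.24 and 1.57, where the test between lines gave an adjusted p of 0.896.

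Lower in the same 3 lines were the EGFR first-intron region, with log2 changes of -1.83, -2.89 and -0.87 in PC9, H1975 and HCC2935, and the ERRFI1 region 71067 bases before the start, with -2.04, -1.86 and -0.62. The same held for the HBEGF region 1439 bases past the start, with -1.17, -0.79 and -0.83, and for the TGFA intron region 28048 bases past the start, with -0.66, -2.45 and -1.06. At the TGFA region the PC9 call was lost with the libraries summed (adjusted p = 0.109). HCC827 was not tested at the ERRFI1 region 49018 bases before the start and was not called at the other 6 regions without the block. Its TGFA value was -1.50 ± 0.49 (adjusted p = 0.363). Other regions went apart between lines, as at the ERRFI1 region 1832 bases before the start, which fell in PC9 (-0.74) and H1975 (-1.83) and rose in HCC2935 (1.43), with an adjusted p of 6.08e-07 for the difference. The EREG region 12334 bases past a start fell in H1975 (-2.44) and rose in HCC2935 (2.60, adjusted p = 3.52e-07 for the difference). The HBEGF intron region 5063 bases before the start fell in PC9 (-0.58, not called with the libraries summed, adjusted p = 0.131) and rose in H1975 (0.82) and HCC2935 (1.51, adjusted p = 4.66e-06 for the difference). At the EGFR region 33187 bases upstream the size differed, with -0.39 in PC9 (not called with the libraries summed, adjusted p = 0.282), -2.89 in H1975, -0.92 in HCC827 and -0.30 in HCC2935 (adjusted p = 1.96e-09).

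AZD5153 alone was measured in PC9 and H1975. H1975 had 46 of 91 regions called lower and 24 higher, with a median log2 change of -0.40 beside -0.04 over all regions tested and backgrounds of 31.4% lower and 26.7% higher. PC9 had 22 of 85 lower and 16 higher, beside 14.6% and 11.2%. These shares were not matched for depth. With the libraries summed, 19 PC9 regions were called, 12 lower and 7 higher, beside 14.1% of all regions, and 57 H1975 regions, 39 lower and 18 higher, beside 48.2%. At EGFR, with 22 of the 91 H1975 regions, the median log2 change was -0.354, beside -0.453 over other tested regions within 5 Mb. The EGFR regions were thus no lower than those around the gene. The H1975 medians of AREG, ERBB2, ERBB3, ERRFI1 and TGFA lay below those around them (TGFA -1.53 beside -0.468). Those of EREG, ERBB4, HBEGF and LRIG1 did not. Whether the fall of the set went beyond that of its surroundings was not tested. The comparison shares its control libraries with that of DTP against control, so the 2 are not independent.

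The annotated LRIG1 regions of H1975 were all higher under AZD5153. Of these, 7 of 7 were called higher, beside 26.7% of all regions tested and 42.2% of promoters. The calls held with library size scaling, with regional medians removed and with the libraries summed. The promoter went from 25, 26.9 and 25.9 CPM to 43.0, 43.2 and 41.7 CPM (0.56 ± 0.08, adjusted p = 8.41e-11). The region over the internal start (chr3:66405605-66406106) had 0.509, 0.442 and 0.913 CPM in control and 6.06, 4.03 and 4.45 CPM under AZD5153 (2.79 ± 0.33, adjusted p = 1.15e-14), and a peak was called there in 3 AZD5153 libraries and in no control library. The intron region 24643 bases before the internal start rose from 0.456 to 0.764 CPM to 3.71 to 5.11 CPM (2.66 ± 0.34, adjusted p = 1.06e-12). It too had a peak in 3 AZD5153 libraries and in no control library. Such regions may be in the annotated table because of the AZD5153 libraries. The count of 7 of 7 is thus not independent of the AZD5153 signal. In PC9 the lone LRIG1 region was at 2.75 to 5.51 CPM in control and 3.8 to 4.44 CPM under AZD5153.

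The receptors ERBB2, ERBB3 and EGFR had regions at later starts that fell in H1975. At ERBB2 the region 616 bases before a later start (chr17:39705632-39706133) went from 31.1, 29.4 and 27.7 CPM to 4.87, 2.42 and 4.13 CPM (-3.05 ± 0.13, adjusted p = 1.9e-61). The ERBB2 promoter at the first start rose instead, from 18.5 to 21.5 CPM to 26.7 to 35.0 CPM (0.41 ± 0.09, adjusted p = 2.5e-05, and 0.136 with the libraries summed). In PC9 the region 611 bases before the later start was at 25.6 to 27.9 CPM in control and 23.6 to 26.0 CPM under AZD5153 and was not called. For ERBB3, 5 of 6 H1975 regions were called lower, and the region 12 bases before a start fell from 9.93, 9.4 and 8.79 CPM to 1.31, 1.13 and 1.06 CPM (-3.15 ± 0.22, adjusted p = 1.53e-31). The PC9 region at that place fell as well, from 4.51 to 4.9 CPM to 1.16 to 2.0 CPM (-1.68 ± 0.32, adjusted p = 2.69e-06). The EGFR internal start fell in both lines, from 16.4, 17.1 and 18.6 CPM to 3.21, 3.39 and 2.12 CPM in H1975 (-2.77 ± 0.16, adjusted p = 1.1e-43) and from 13.0, 13.1 and 10.4 CPM to 5.2, 5.21 and 4.43 CPM in PC9 (-1.37 ± 0.19, adjusted p = 4.78e-11). The main EGFR promoter rose slightly in both, by 0.38 ± 0.11 in H1975 and 0.28 ± 0.08 in PC9, and neither was called with the libraries summed (adjusted p = 0.194 and 0.452).

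In PC9, EGFR had 13 of 36 regions called lower and 9 higher under AZD5153. A region in the 3′ UTR (chr7:55209314-55209815) had 12, 7.26 and 7.43 CPM in control and 0.0, 0.964 and 0.578 CPM under AZD5153 (-4.07 ± 0.35, adjusted p = 1.01e-26). The region 72289 bases upstream fell from 12.5, 9.22 and 10.6 CPM to 1.4, 1.54 and 1.35 CPM (-2.95 ± 0.26, adjusted p = 3.61e-25). The region 58147 bases upstream rose from 2.51, 3.53 and 3.52 CPM to 8.0, 13.1 and 10.4 CPM (1.61 ± 0.22, adjusted p = 3.33e-11), and the region 33187 bases upstream from 15.9 to 23.8 CPM to 35.0 to 45.1 CPM (1.05 ± 0.10, adjusted p = 9.19e-21). At the last of these places H1975 fell from 41.0 to 41.7 CPM to 15.7 to 19.2 CPM (-1.44 ± 0.09, adjusted p = 7.77e-40), and whether the AZD5153 change differed between the lines was not tested.

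Among the ligands, TGFA was lower under AZD5153 in H1975, with 10 of 11 regions called lower and 1 higher. Its promoter went from 20.8 to 24.1 CPM to 12.8 to 17.8 CPM (-0.74 ± 0.10, adjusted p = 5e-11). In PC9, 3 of 9 TGFA regions were called lower and 2 higher, and the promoter was at 24.1 to 27.4 CPM in control and 29.8 to 31.8 CPM under AZD5153 without a call. AREG had 4 of 7 H1975 regions called lower and none higher, and the region 56926 bases past a start was at 1.45 to 2.23 CPM under AZD5153 against 9.04 to 9.29 CPM in control (-2.51 ± 0.20, adjusted p = 8.87e-26). HBEGF had 4 regions called higher and 3 lower of 9. Its region 11813 bases past an internal start rose from 0.342 to 0.764 CPM to 5.7 to 7.9 CPM (3.46 ± 0.30, adjusted p = 4.95e-23). ERRFI1 had 9 of 14 H1975 regions called lower and 3 higher. Its intron region 43926 bases before the start went from 7.0, 4.98 and 6.16 CPM to 1.07, 0.645 and 1.06 CPM (-2.79 ± 0.26, adjusted p = 1.84e-20), and the region 400 bases before the start from 2.67, 3.54 and 3.08 CPM to 7.84, 9.35 and 8.27 CPM (1.27 ± 0.18, adjusted p = 1.86e-10). In PC9 the region 406 bases before the ERRFI1 start rose as well, from 0.752 to 1.76 CPM to 4.44 to 5.6 CPM (1.73 ± 0.33, adjusted p = 2.82e-06).

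**Figure D5:**
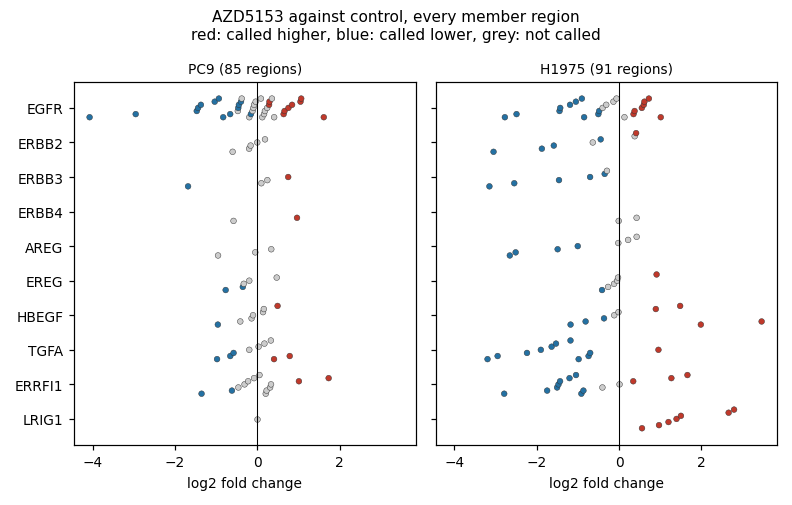
Each point is a region, placed by its log2 fold change under AZD5153 alone against control, in rows by gene for PC9 and H1975, with called regions in red (higher) or blue (lower). All 7 LRIG1 regions of H1975 are red, from 0.56 to 2.79, and 10 of 11 TGFA regions there are blue.

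Combo against DTP sets 21 days of osimertinib followed by 3 days of AZD5153 against 24 days of osimertinib. Whether osimertinib was kept during the 3 days is not stated. An effect of AZD5153 and one of osimertinib withdrawal therefore cannot be told apart here. H1975 had 27 of 91 regions called higher and 5 lower, beside 11.5% and 9.48% of all regions. PC9 had 19 of 85 lower and 9 higher, beside 11.7% and 10.6%, and HCC2935 had 10 of 77 lower and 4 higher, beside 6.4% and 1.9%. Promoters had another background. Of the 39 H1975 promoter regions of the set 13 were called higher and 4 lower, where 35.2% and 5.27% of promoters over all genes were called. Of the 52 outside promoters 14 were called higher and 1 lower, and no background was taken for these. In HCC827, edgeR called 0 of 380, as it did of all regions (0.0% higher and 0.0% lower), DESeq2 called 0 as well, and 6 regions had an unadjusted p under 0.05. With the libraries summed, 9 PC9 regions were called, all lower, beside 8.11% of all regions, so that no higher call of PC9 was kept. In H1975 8 were called, 7 higher and 1 lower, beside 5.97%. Without combo replicate 3 the H1975 count was 20, and without DTP replicate 2 or combo replicate 2 the HCC2935 count was 9 or 8.

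In PC9 the region over the EGFR internal start fell from 12.7 to 12.8 CPM in DTP to 2.34, 2.32 and 4.01 CPM in combo (-2.13 ± 0.21, adjusted p = 4.75e-19). The TGFA region 77227 bases past an internal start fell from 5.26, 4.31 and 3.41 CPM to 0.975, 1.05 and 2.11 CPM (-1.64 ± 0.34, adjusted p = 3.74e-05). In H1975 the ERBB3 region 12 bases before a start fell from 4.93, 5.17 and 5.13 CPM to 1.63, 1.88 and 2.88 CPM (-1.15 ± 0.21, adjusted p = 7.18e-06), while the HBEGF region 2524 bases past a start rose from 1.32, 2.11 and 2.51 CPM to 4.9, 5.2 and 4.37 CPM (1.33 ± 0.23, adjusted p = 8.7e-07). The EGFR intron region 35389 bases before the internal start was at 22.0 to 23.9 CPM in DTP and 34.8 to 38.4 CPM in combo (0.73 ± 0.08, adjusted p = 1.1e-14). In HCC2935 the EGFR region 72266 bases upstream went from 14.4 to 17.6 CPM in DTP to 5.83 to 10.4 CPM in combo (-1.02 ± 0.19, adjusted p = 0.000323). The TGFA region 14501 bases before the start fell from 13.0, 10.1 and 7.29 CPM to 5.51, 3.47 and 2.25 CPM (-1.44 ± 0.25, adjusted p = 0.000104), and the TGFA region 28050 bases past the start from 23.9 to 27.2 CPM to 14.2 to 16.2 CPM (-0.77 ± 0.12, adjusted p = 2.48e-05). The EGFR region 85335 bases upstream rose there from 11.7 to 12.1 CPM to 20.3 to 23.4 CPM (0.86 ± 0.14, adjusted p = 3.63e-05). The comparison shares its DTP libraries with that of DTP against control, so the 2 are not independent.

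The change from DTP to combo was set against that from control to AZD5153 alone by a test of the difference of the 2 changes. The limit on osimertinib during the 3 days of AZD5153 holds here too. In H1975 the 2 changes differed for 55 of 91 regions, beside 42.5% of all regions. For 42 of them the change from DTP to combo was the more positive. Of all 191202 regions tested there, 46621 had a more positive and 34727 a more negative change. The H1975 median difference at EGFR was 0.37, the same as over other tested regions within 5 Mb (0.37). At ERRFI1 it was 1.23 beside -0.17. In PC9 the 2 changes differed for 20 of 85 regions, beside 13.8%. With the libraries summed, the counts were 41 in H1975, 34 of them more positive, and 6 in PC9, beside 30.9% and 4.81%. The LRIG1 rise of H1975 under AZD5153 was smaller or missing after osimertinib. The region over its internal start was at 1.32, 0.211 and 0.419 CPM in DTP and 0.35, 0.332 and 0.497 CPM in combo, and the difference of the changes was -3.35 ± 0.68 (adjusted p = 9.89e-06). For 6 of 7 LRIG1 regions the difference passed the test, all negative, and the promoter call was lost with the libraries summed (adjusted p = 0.218). The ERBB2 region 616 bases before the later start was at 29.3 to 30.5 CPM in DTP and 32.3 to 34.6 CPM in combo, so that its fall under AZD5153 alone was not seen there (difference 3.29 ± 0.15, adjusted p = 7.63e-54). The EGFR internal start of H1975 behaved alike, at 9.97 to 10.5 CPM in DTP and 12.6 to 13.2 CPM in combo (3.19 ± 0.20, adjusted p = 4.81e-37). In PC9 that region fell in both settings and the difference was not called. The EGFR region in the 3′ UTR of PC9, which fell under AZD5153 alone, was at 5.45 to 7.8 CPM in DTP and 4.68 to 6.75 CPM in combo (3.86 ± 0.44, adjusted p = 6.92e-15).

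Promoter regions of 49 other genes of the pathway, including further ligands, sheddases, adaptors, kinases and negative regulators, were read from the same fits. The background here is the share of called promoters over all genes of the line, with the promoter region chosen in the same way. For DTP against control in PC9, 6 of 45 tested promoters were called higher and 7 lower, beside 13.8% and 10.1% of 15808 promoters. In H1975 5 of 43 were higher and 9 lower, beside 20.7% and 26.2% of 15448. In HCC2935 11 of 41 were higher and 2 lower, beside 22.5% and 10.3% of 14795. In HCC827 none of 32 was called by edgeR for either comparison, as of all promoters (0.0%), and 0 had an unadjusted p under 0.05 in each. Combo against DTP gave 12 higher and 3 lower in PC9, beside 22.3% and 7.42%, and 11 and 2 in H1975, beside 35.2% and 5.27%. In HCC2935 it gave 1 and 1, beside 5.83% and 2.71%. Under AZD5153 alone 23 of 43 H1975 promoters were called higher and 10 lower, beside 42.2% and 24.9%, while PC9 had 3 higher and 8 lower of 45, beside 8.7% and 13.2%. The largest H1975 falls were those of EGF (-3.85 ± 0.22, adjusted p = 3.3e-43), the founding ligand of the family, and of the LRIG1 relatives LRIG2 (-3.53 ± 0.36, adjusted p = 1.03e-17) and LRIG3 (-2.15 ± 0.14, adjusted p = 7.97e-37), whose direction was opposite to that of LRIG1. In PC9 the largest change in DTP was at NRG3 (1.25 ± 0.29, adjusted p = 0.000141), a ligand of ERBB4, and the largest fall at SOCS3 (-0.59 ± 0.11, adjusted p = 3.4e-06), an inhibitor of cytokine signalling. In HCC2935 the largest DTP rise was at PLCG1 (1.09 ± 0.26, adjusted p = 0.000668), a phospholipase activated by the receptors.

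As a description of likeness, each of the 5 matched promoters was correlated over the 14 group means with the matched region nearest to the start of other genes, among 14476 promoters, where groups of a line share its copy number and its libraries. For EGFR the most alike were SEC61G-DT (Pearson r = 0.98), RASSF3 (0.979) and LANCL2 (0.974), of which SEC61G-DT and LANCL2 lie beside EGFR on chromosome 7. For ERBB2 they were DOT1L (0.904), FZR1 (0.898) and PKN3 (0.897), and for ERRFI1 they were CBFB (0.903), GET1 (0.9) and SLC4A9 (0.849). For ERBB3 they were PEX2 (0.962), LETMD1 (0.959) and ATP5F1B (0.95). HBEGF, the lone ligand matched, was most like WDR38 (0.924), CEBPZ (0.914) and PCID2 (0.903).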

How the data were processed

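ATAC-seq was measured in 42 libraries of 4 cell lines. The authors deposited raw counts in regions of 502 bases on hg38, and for a subset of regions an annotation with gene symbol and distance to the nearest transcript start. They also deposited peak lists per library with the −log10 of the q-value, from which only the number of libraries with a called peak was taken. The submitters' processing notes name BWA 0.7.17, SAMtools 1.9, deepTools 3.4, MACS2 2.2.6, featureCounts 2.0.0 and ChIPseeker 1.29.1, and how regions were picked for the annotated tables is not stated.

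Counts of all groups of a line were fitted together with edgeR 4.0.16 in R 4.3.3 (TMM, filterByExpr, quasi-likelihood F test), with Benjamini-Hochberg adjustment over the 82309 to 191202 regions tested per line. All 633 regions of the 10 genes passed the filter. SE is the log2 fold change divided by the square root of F. The script was tested on simulated counts with 100 regions changed 2-fold and 100 changed 4-fold in DTP. Called were 80 and 100 of these in PC9, 79 and 100 in H1975, 65 and 98 in HCC2935, and 0 and 7 in HCC827. The joint test of the DTP change by line used regions matched by a reciprocal overlap of at least 50%. Distances are to the nearest listed start, which may be internal to the gene, and negative or "before" means upstream.

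Regions were named by rule: the promoter region of each gene and line, the 3 largest rises and falls per line and comparison among called regions with separated libraries and a mean CPM at or above the median, the highest other region, matched regions called in the same way in at least 3 lines, and the largest differences of the AZD5153 change. Others, such as falls or rises at the place of a named region in another line, were chosen after their values were seen. Members and lists were chosen with earlier results of these data known.

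In HCC827, libraries that share a replicate number deviated alike, where the correlation of their deviations was 0.26 to 0.857 and over 0.1 in 9 of 9 pairs, and in 0 of 18 pairs in PC9, 0 of 18 in H1975 and 3 of 9 in HCC2935. The pairing in HCC827 comes from these correlations, since the labels do not state what a number marks. Alternatives were DESeq2 1.42.0, other scalings, filters, the replicate block, the libraries summed with the dispersion of HCC2935, and leaving out each library. A marker gene of the lists is not reported here.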

Additional observations from a re-analysis of the deposited data

Results flagged for a closer look

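Some changes differed between groups by a test of the difference itself. The AZD5153 change differed between DTP and untreated cells in 20 of 85 PC9 regions, beside 13.8% of all regions tested. In H1975 it differed in 55 of 91 regions, beside 42.5%. In PC9 the difference was most negative at the EGFR region 58147 bases upstream, at -3.09 ± 0.41 (adjusted p = 3.82e-11 by edgeR). There the level was higher under AZD5153 alone than in control and lower in combo than in DTP. It was most positive at the EGFR region in the 3′ UTR, at 3.86 ± 0.44 (adjusted p = 6.92e-15). In H1975 the most negative difference was at the LRIG1 region 107 bases past the internal start, at -3.35 ± 0.68 (adjusted p = 9.89e-06). The most positive was at the TGFA region 77188 bases past an internal start, at 3.39 ± 0.57 (adjusted p = 1.06e-07). The TGFA region was at 0.422 to 1.08 CPM in DTP and 0.442 to 1.05 CPM in combo, beside 0.645 to 0.954 CPM under AZD5153 alone. From so low a level in DTP a further fall could hardly be seen.

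The DTP change differed by cell line in 41 of 84 matched regions (48.8%), beside 39.2% of all matched regions tested. The smallest adjusted p-values of this edgeR test were 1.96e-09 at the EGFR region 33187 bases upstream, 3.52e-07 at the EREG region 12334 bases past a start and 6.08e-07 at the ERRFI1 region 1832 bases before the start. At the EREG and ERRFI1 regions the change in HCC2935 was opposite to that in H1975.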

How the results depend on the processing

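The number of regions called moved by over 1.5 times under some settings. With a mean count of at least 50 per library, 30 PC9 regions were tested and 15 were called for DTP, 11 for combo, 19 for AZD5153 and 13 for the difference of the AZD5153 changes. In H1975 the counts of 37 tested were 28, 12, 32 and 27, in HCC2935 11 and 8 of 33, and in the joint test 20 of 31. Here fewer regions were tested. With DESeq2 in place of edgeR the counts were 15 for combo, 23 for AZD5153 and 11 for the difference in PC9, 15 for combo in H1975, 1 for DTP in HCC827 and 8 for combo in HCC2935. With the libraries summed, PC9 had 21, 9, 19 and 6, H1975 had 8 for combo, and HCC827 had 29 and 26. With no filter HCC2935 had 9 for combo. The cause of the DESeq2 and no-filter counts was not tested. With the replicate block, HCC827 had 10 for DTP, and in the other lines no count moved by over 1.5 times. Leaving out 1 library gave 20 to 28 for combo in H1975, lowest without combo replicate 3, and 8 to 14 for combo in HCC2935, where 9 were left without DTP replicate 2 and 8 without combo replicate 2. Of 714 values of 52 named regions under alternatives, 668 kept direction and call, 46 kept direction and lost the call, and 0 reversed. In all 9 regions lost the call at least once, 8 of them with the libraries summed and 7 without 1 library. Depth limits the regions near 1 CPM, which hold few counts per library.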
